A study of Mus musculus with 8 samples.

Results

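RNA of 3 chemokine receptors and of their ligands was followed in whole tumours: Cxcr6 with Cxcl16, Cxcr4 with Cxcl12, and Cx3cr1 with Cx3cl1. These 6 genes were taken by symbol, and all 6 were found among the 693 genes measured. The tumours grew from cells of the mouse line 4MOSC1, an oral squamous cell carcinoma, placed in the right cheek of female C57BL/6N mice aged 4 to 6 weeks. The CXCL10 group of 4 tumours was injected with 10 µg of the chemokine in 50 µl of PBS on days 3, 6 and 9 after implantation, and the vehicle group of 4 tumours was injected with 50 µl of PBS alone. All 8 tumours came from 1 transplanted line and were titled as collected on day 10. The source names instead give days 10 to 13 for vehicle and 14 to 17 for CXCL10 tumours, under which day and treatment cannot be told apart. RNA of the whole tumour was counted with probes for a set of mostly immune genes, and levels are log2 normalized counts.

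Chemokines bind G protein-coupled receptors and direct leucocyte movement. CXCR6 is carried by effector and tissue-resident T cells and by some NK cells, and its ligand CXCL16 is a membrane-bound chemokine of macrophages, dendritic cells and epithelia that can also be shed. CXCR4 is carried by most leucocytes and by many carcinoma cells, and its ligand CXCL12 is made above all by fibroblasts, pericytes and endothelium. CX3CR1 marks monocytes, macrophages and part of the cytotoxic lymphocytes, and its ligand CX3CL1, or fractalkine, is a membrane-bound chemokine of endothelium and epithelium.

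Promoter windows are shown for Cxcr6 and Cxcl12, the receptor and the ligand whose levels did not overlap between the groups. Each is the 250 bases before the RefSeq gene start in build GRCm38.p6, read 5′ to 3′ on the plus strand, which for Cxcr6 is chr9:123806227-123806476 and for Cxcl12 is chr6:117168285-117168534. Capitals mark matches on either strand to the 6 motifs searched.
Cxcr6: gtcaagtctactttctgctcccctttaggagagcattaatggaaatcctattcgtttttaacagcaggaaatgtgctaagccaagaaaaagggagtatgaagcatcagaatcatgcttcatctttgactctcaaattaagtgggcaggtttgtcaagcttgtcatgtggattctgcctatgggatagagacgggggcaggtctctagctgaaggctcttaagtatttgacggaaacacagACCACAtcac
Cxcl12: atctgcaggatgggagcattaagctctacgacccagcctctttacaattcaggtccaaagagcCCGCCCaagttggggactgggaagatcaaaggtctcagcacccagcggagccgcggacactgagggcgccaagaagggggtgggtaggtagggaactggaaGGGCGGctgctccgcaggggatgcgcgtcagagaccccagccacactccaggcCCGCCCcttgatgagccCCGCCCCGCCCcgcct
The Cxcr6 window held 3 CpG dinucleotides and 43.6% G and C, and the Cxcl12 window held 14 CpG and 64.4% G and C, against medians of 6 and 52.4% over 32851 windows of the same length. The Cxcl12 window held 5 matches to the SP1 motif GGGCGG, a pair of which overlap by 1 base, and at least 1 match is found in 32.7% of all windows. The Cxcr6 window held 1 match to the RUNX motif TGTGGT, 5 to 10 bases before the start, and 14.0% of windows hold one. The other motifs, absent from both windows, were STAT (TTCNNNGAA, in 7.02% of windows), T-box (TCACACC, 3.33%), HIF (ACGTG, 16.6%) and the TATA box (TATAAA, 12.4%). Windows were found for 5 of the 6 genes. Those of Cxcr4 and Cx3cl1 held 3 and 1 matches to GGGCGG with 19 and 14 CpG, and that of Cx3cr1 held 0 with 4 CpG. The Cx3cr1 window also held 1 match to TGTGGT, and those of Cxcr4 and Cx3cl1 held 2 and 1 matches to TATAAA. A match describes letters only and is no measure of binding in these tumours.

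The comparison asked whether RNA of these receptors and ligands differed between CXCL10-injected and vehicle-injected tumours. Cxcr6 had a higher mean and Cxcl12 a lower mean after CXCL10, and in each of these 2 genes no tumour of one group reached the range of the other. Cxcr4, Cxcl16, Cx3cr1 and Cx3cl1 overlapped between the groups. None of the 6 passed limma's test at an adjusted p under 0.05 over the 693 genes. That test called 2 genes higher (0.289% of the panel) and 0 lower (0%), while 1 of the 6 members on each side had an unadjusted p under 0.05, against 104 genes higher (15.0%) and 28 lower (4.04%) over the panel. With median-of-ratios scaling, centring on the panel median or quantile normalization, Cx3cr1 joined Cxcl12, so that 2 members lay on the lower side, where 8.66%, 7.22% and 9.24% of the panel did. Cxcr6 remained alone on the higher side, beside 8.80%, 11.0% and 8.08% of the panel.

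**Figure D1:**
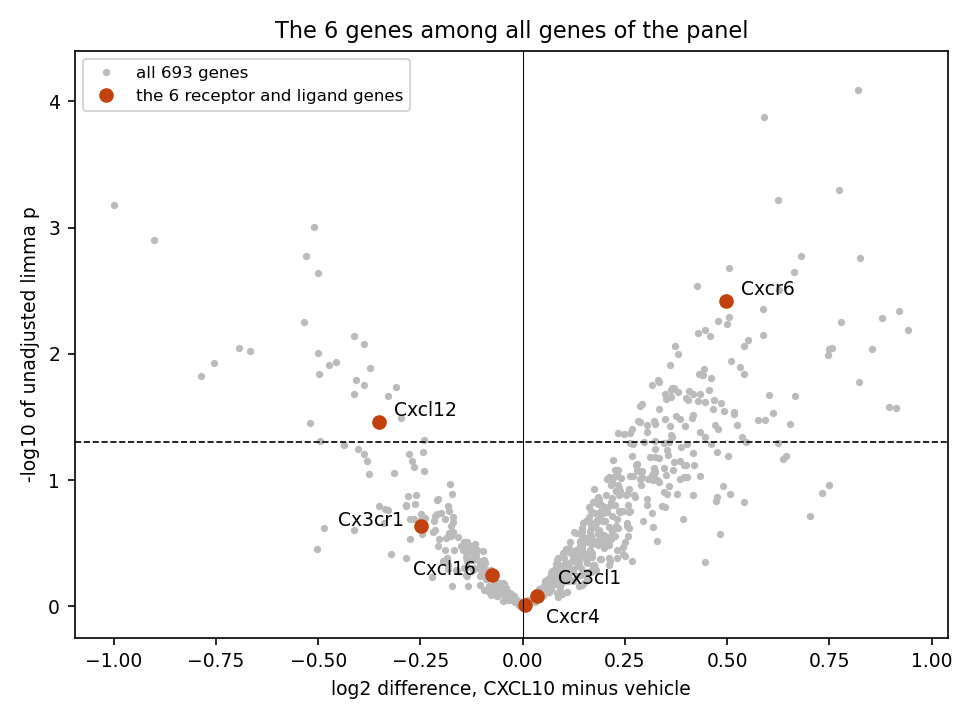
Log2 difference between CXCL10 and vehicle tumours (horizontal axis) against the -log10 of the unadjusted limma p (vertical axis) for all 693 genes in grey and the 6 receptor and ligand genes in orange; the dashed line marks an unadjusted p of 0.05. Cxcr6 at 0.50 and Cxcl12 at -0.35 lie above the line, and the other 4 genes lie below it.

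**Figure D2:**
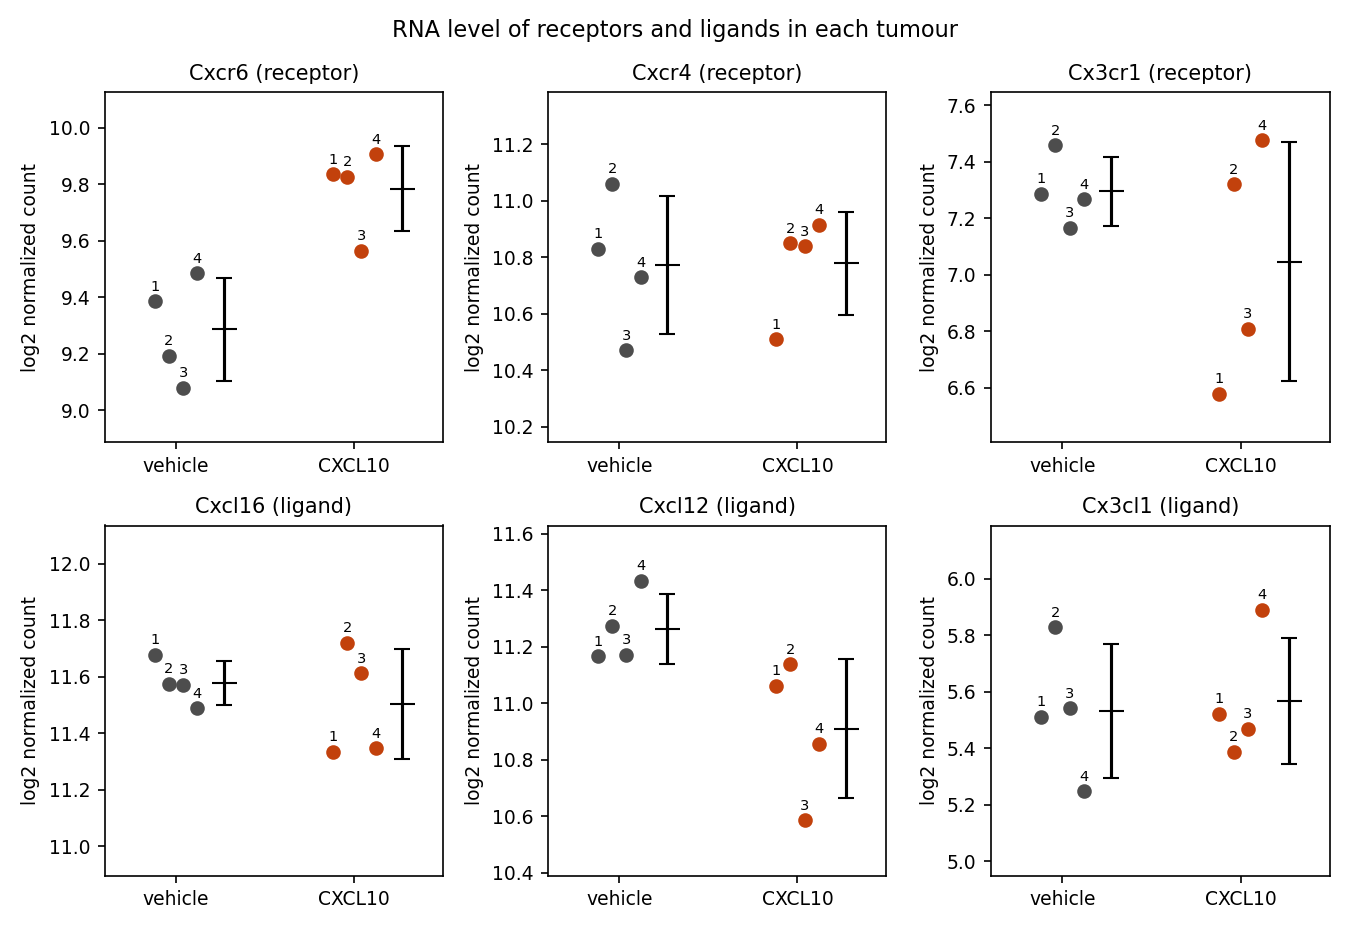
RNA level of each gene (log2 normalized count, vertical axis) in the 4 vehicle and 4 CXCL10 tumours, numbered as in the labels, with receptors in the upper and ligands in the lower row; bars show mean ± SD, and every panel spans the same range of log2 units. The 4 CXCL10 tumours lie between 9.56 and 9.91 for Cxcr6, above all vehicle tumours, and between 10.59 and 11.14 for Cxcl12, below all of them.

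Cxcr6 (Entrez 80901) stood at log2 levels of 9.39, 9.19, 9.08 and 9.49 in vehicle tumours 1 to 4, and at 9.84, 9.83, 9.56 and 9.91 in CXCL10 tumours 1 to 4. The lowest CXCL10 tumour, number 3, lay above the highest vehicle tumour, number 4. Group means were 9.29 ± 0.18 and 9.78 ± 0.15 (SD, n = 4 each), a 1.41-fold difference with a 95% interval of 1.15 to 1.73. The log2 difference of 0.50 (SE 0.13) had an unadjusted p of 0.00383, rank 16 among 693 genes, and a limma adjusted p = 0.166. Groups without overlap and a higher CXCL10 level were found in 7.79% of all genes, so that Cxcr6 is 1 of 54 such genes.

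The panel as a whole leaned upward on the authors' scaling, with 482 of 693 genes higher (69.6%), 211 lower (30.4%) and a median log2 difference of 0.13. Relative to that median Cxcr6 stood at 0.37, and its difference was 0.39 with median-of-ratios scaling, 0.42 after centring on the panel median and 0.38 with quantile normalization. Recovered probe counts of Cxcr6 were 535 to 698 in vehicle and 803 to 994 in CXCL10 tumours. Counting error at these numbers amounts to SDs of 0.059 and 0.048 on the log2 scale, below the SDs of 0.18 and 0.15 between tumours.

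Markers of the cells that carry CXCR6 were higher beside it. T cell markers were higher in 15 of 15 measured genes (69.6% over the panel), with a median log2 difference of 0.24, 0 called and 6 with an unadjusted p under 0.05 (15.0% over the panel on the higher side). Their summed normalized count ranged from 2630 to 3684 in vehicle and from 3489 to 4235 in CXCL10 tumours. Markers of cytotoxic and NK cells were higher in 14 of 14, with a median of 0.34 (0.22 without CXCL10 tumour 2) and 0 called. An unadjusted p under 0.05 was found in 5 of the 14 (15.0% over the panel on the higher side). Prf1 and Itgam, the latter also listed for monocytes and macrophages, stood at only 0.043 and 0.034. The 14 summed to between 4662 and 5681 in vehicle and between 5355 and 7255 in CXCL10 tumours. Under the other scalings 14 or 15 of 15 T cell and 12 of 14 cytotoxic and NK cell markers were higher, and the medians lay between 0.14 and 0.26 for these 2 lists. No marker of either list was at 0 counts in any tumour. Their part in the Cxcr6 difference was not tested, and in RNA of whole tumours more cells of a type and more RNA per cell cannot be told apart.

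Cxcr6 can be set against the T cell markers within each tumour, in which any scaling factor of the tumour cancels. Its log2 level minus the mean log2 level of the 15 T cell markers was 1.85, 1.98, 2.05 and 2.21 in vehicle tumours 1 to 4, and 2.38, 2.24, 2.11 and 2.19 in CXCL10 tumours 1 to 4. The groups overlapped on this measure, since vehicle tumour 4 lay above CXCL10 tumours 3 and 4. The difference between group means was 0.20 (SE 0.094), against 0.50 for the Cxcr6 level itself. Against the 14 markers of cytotoxic and NK cells it was 0.14 (SE 0.13), with overlap as well. These within-tumour differences are descriptions without a test.

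Cxcl16 (Entrez 66102), the ligand of CXCR6, stood at 11.68, 11.58, 11.57 and 11.49 in vehicle and at 11.33, 11.72, 11.61 and 11.35 in CXCL10 tumours 1 to 4. Vehicle tumours lay close together, while CXCL10 tumours 1 and 4 lay below them all and number 2 above them all. The means were 11.58 ± 0.078 and 11.50 ± 0.19 (SD, n = 4 each), with a log2 difference of -0.075 (SE 0.13, 95% interval -0.35 to 0.21, limma adjusted p = 0.761). The 3 other scalings gave -0.18, -0.15 and -0.20, and leaving out 1 tumour gave -0.15 (without CXCL10 tumour 2) to -0.018 (without CXCL10 tumour 1). The interval on the authors' scaling holds changes of about 0.782-fold to 1.15-fold. Monocyte and macrophage markers, among the known sources of CXCL16, were higher in 8 of 14 genes (69.6% over the panel) with 0 called. Under the 3 other scalings 3 to 5 of 14 were higher, beside 365 to 405 of 693 genes over the panel. Their median was 0.027 (-0.10 to -0.052 under the 3 other scalings, and -0.17 without CXCL10 tumour 2, -0.081 without vehicle tumour 1 and 0.0996 without CXCL10 tumour 1). The summed normalized count of these markers ranged from 27824 to 33970 in vehicle and from 26248 to 44876 in CXCL10 tumours.

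Receptor set beside ligand, the log2 level of Cxcr6 minus that of Cxcl16 was -2.29, -2.38, -2.49 and -2.00 in vehicle and -1.50, -1.89, -2.05 and -1.44 in CXCL10 tumours 1 to 4. The 2 CXCL10 tumours with the least Cxcl16, numbers 1 and 4, were also those with the most Cxcr6, so that they necessarily had the highest values of this measure. Their order for Cxcr6 is not firm, since CXCL10 tumours 1 and 2 were nearly equal at 9.84 and 9.83. CXCL10 tumour 3 lay below vehicle tumour 4, so the groups overlapped. The means differed by 0.57 (SE 0.18, or 0.48 to 0.68 with 1 tumour left out), a 1.49-fold higher ratio of receptor to ligand RNA after CXCL10. Probes differ in efficiency, so only the shift between groups can be read, not which of the 2 RNAs was more abundant.

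**Figure D3:**
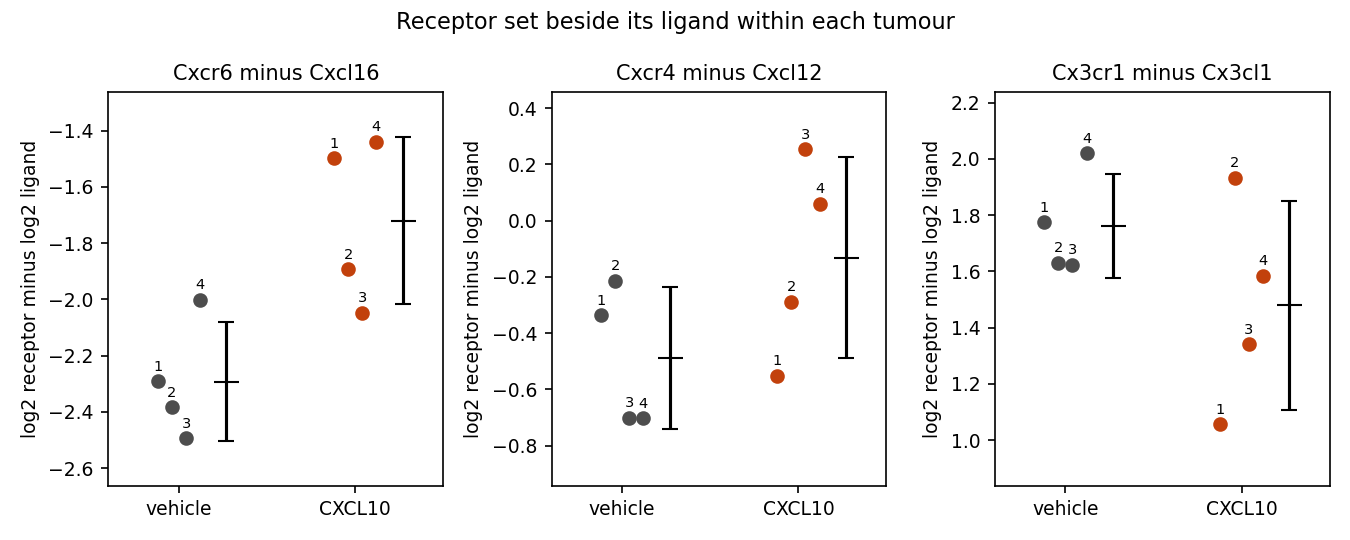
Log2 level of each receptor minus that of its ligand (vertical axis) in the 4 vehicle and 4 CXCL10 tumours, with mean ± SD; the 3 panels span the same range of log2 units. Means differ by 0.57 for Cxcr6 minus Cxcl16, 0.36 for Cxcr4 minus Cxcl12 and -0.28 for Cx3cr1 minus Cx3cl1, and the groups overlap in all 3 pairs.

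Cxcr4 (Entrez 12767) had nearly equal means in the groups. Its levels were 10.83, 11.06, 10.47 and 10.73 in vehicle and 10.51, 10.85, 10.84 and 10.92 in CXCL10 tumours 1 to 4. The highest and the lowest of all 8 values were both vehicle tumours, numbers 2 and 3. The means were 10.77 ± 0.24 and 10.78 ± 0.18 (SD, n = 4 each), and the log2 difference was 0.0055 (SE 0.15, 95% interval -0.33 to 0.34, limma adjusted p = 0.986). The sign is not settled, since the difference was -0.10 with median-of-ratios scaling, -0.074 after centring on the panel median and -0.12 with quantile normalization. Against the mean of the T cell markers, which were higher after CXCL10, Cxcr4 stood at 3.51 ± 0.24 in vehicle and 3.22 ± 0.14 in CXCL10 tumours (SD, n = 4 each), with overlap. Against the monocyte and macrophage markers it stood at 0.82 ± 0.21 and 0.77 ± 0.28, also with overlap. The means differed by -0.29 (SE 0.14) on the T cell measure and by -0.055 (SE 0.17) on the monocyte and macrophage measure.

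Cxcl12 (Entrez 20315), the ligand of CXCR4, stood at 11.17, 11.27, 11.17 and 11.43 in vehicle and at 11.06, 11.14, 10.59 and 10.86 in CXCL10 tumours 1 to 4. The highest CXCL10 tumour, number 2, lay just below the lowest vehicle tumour, number 1. The means were 11.26 ± 0.12 and 10.91 ± 0.25 (SD, n = 4 each), a ratio of 0.784 with a 95% interval of 0.628 to 0.979. The log2 difference of -0.35 (SE 0.14) had an unadjusted p of 0.0347, rank 107 among 693 genes, and a limma adjusted p = 0.223. A lower CXCL10 level without overlap was found in 3.03% of all genes, and Cxcl12 is 1 of 21. Relative to the median of the panel the difference was -0.48, and it was -0.46, -0.43 and -0.46 under the 3 other scalings. Without CXCL10 tumour 3, the lowest, the difference was -0.24 and the unadjusted p 0.110. The unadjusted p also rose above 0.05 without vehicle tumour 2 (0.0631), vehicle tumour 4 (0.0922) or CXCL10 tumour 4 (0.0696).

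Most markers of the cells that make CXCL12 were lower beside it, but unevenly. Fibroblast, pericyte and matrix genes were lower in 9 of 10 (30.4% over the panel), with a median of -0.27 and 0 called. Of the 10, 4 had an unadjusted p under 0.05, all on the lower side, where 4.04% of the panel lay. They were Cspg4 (-0.90), Col4a1 (-0.50), Vim (-0.50) and Tgfb3 (-0.39). Pdgfrb, Col1a1 and Fn1 stood at -0.28, -0.27 and -0.18. Col3a1 (-0.041) and Thy1 (-0.033) differed little, and Fap was higher at 0.30. The summed normalized count of this list ranged from 72890 to 96171 in vehicle and from 65388 to 101276 in CXCL10 tumours. Endothelial genes were lower in 9 of 11 (30.4% over the panel), with a median of -0.33 and 0 called. An unadjusted p under 0.05 was found in 6 of the 11, all on the lower side (4.04% over the panel). The 11 summed to between 4779 and 7298 in vehicle and between 4005 and 5523 in CXCL10 tumours. None of these markers was at 0 counts in any tumour, and their part in the Cxcl12 difference was not tested. Minus the mean log2 level of the 10 fibroblast, pericyte and matrix genes, Cxcl12 stood at 0.49, 0.49, 0.31 and 0.55 in vehicle and at 0.57, 0.38, 0.31 and 0.29 in CXCL10 tumours 1 to 4. The groups overlapped and their means differed by -0.073 (SE 0.082), against -0.35 for the Cxcl12 level itself. Minus the mean of the 11 endothelial genes the difference was -0.075 (SE 0.073).

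**Figure D4:**
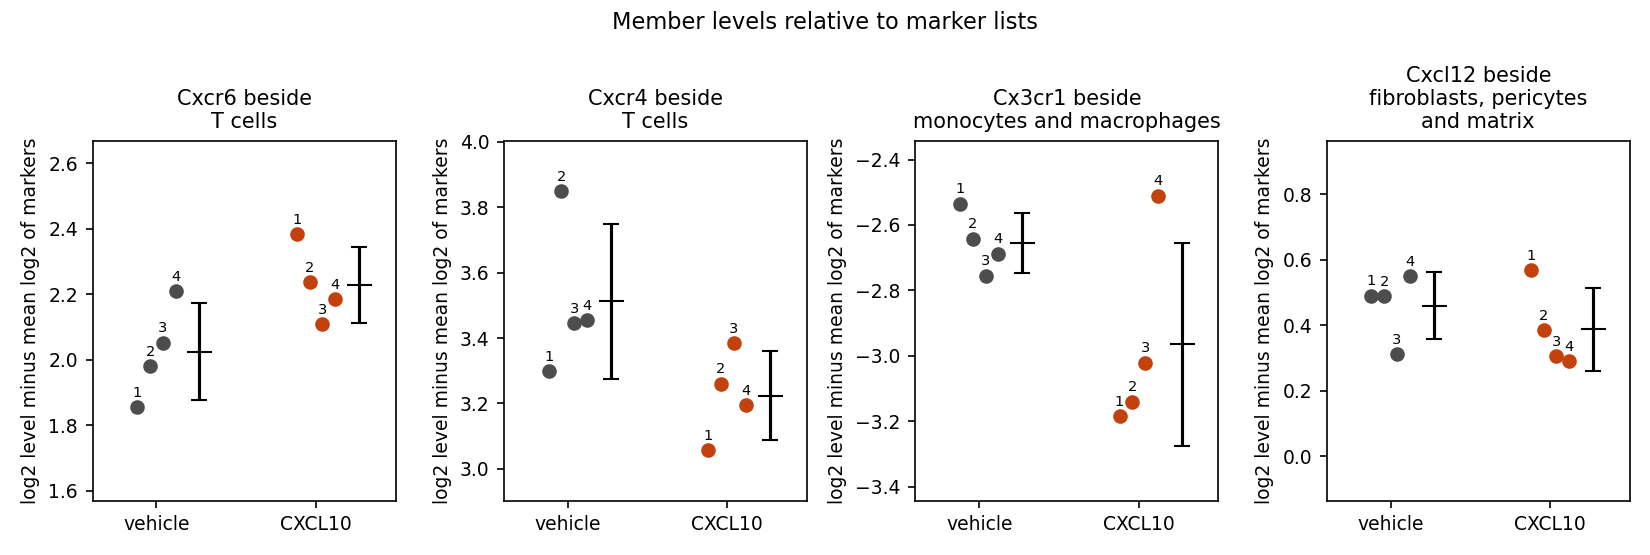
Log2 level of a gene minus the mean log2 level of a list of cell type markers (vertical axis) in each of the 4 vehicle and 4 CXCL10 tumours, with mean ± SD and panels of equal range. Group means differ by 0.20 for Cxcr6 and by -0.29 for Cxcr4 beside T cell markers, by -0.31 for Cx3cr1 beside monocyte and macrophage markers, and by -0.073 for Cxcl12 beside fibroblast, pericyte and matrix markers.

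The log2 level of Cxcr4 minus that of Cxcl12 was -0.34, -0.21, -0.70 and -0.70 in vehicle and -0.55, -0.29, 0.25 and 0.059 in CXCL10 tumours 1 to 4. CXCL10 tumours 3 and 4 lay above every vehicle tumour, and CXCL10 tumours 1 and 2 lay within the vehicle range. The means differed by 0.36 (SE 0.22). It was 0.23 without CXCL10 tumour 3 and 0.50 without CXCL10 tumour 1. The Cxcr4 means themselves differed by 0.0055 and the Cxcl12 means by -0.35.

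Cx3cr1 (Entrez 13051) varied most among the 6 genes within the CXCL10 group. Its levels were 7.29, 7.46, 7.17 and 7.27 in vehicle and 6.58, 7.32, 6.81 and 7.48 in CXCL10 tumours 1 to 4. CXCL10 tumours 1 and 3 lay below every vehicle tumour, while tumour 4 was the highest of all 8. The means were 7.30 ± 0.12 and 7.05 ± 0.42 (SD, n = 4 each), with a log2 difference of -0.25 (SE 0.20, 95% interval -0.68 to 0.19, limma adjusted p = 0.507, unadjusted p 0.231). Recovered counts were 148 to 161 in vehicle and 104 to 183 in CXCL10 tumours. Counting error alone gives SDs of 0.12 and 0.13, about the size of the vehicle spread and below that of the CXCL10 group. The difference was -0.35 with median-of-ratios scaling, -0.33 after centring on the panel median and -0.36 with quantile normalization, with unadjusted p of 0.0397, 0.0472 and 0.0375 and limma adjusted p of 0.270, 0.269 and 0.268. On the authors' scaling, without CXCL10 tumour 1 it was -0.093, and without tumour 4 it was -0.39. Minus the mean of 14 monocyte and macrophage markers, Cx3cr1 stood at -2.53, -2.64, -2.75 and -2.69 in vehicle and at -3.18, -3.14, -3.02 and -2.51 in CXCL10 tumours 1 to 4. On that measure 3 of the 4 CXCL10 tumours lay below all vehicle tumours and the other lay above them, with means apart by -0.31 (SE 0.16).

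Cx3cl1 (Entrez 20312) was measured with few counts, 37 to 52 in vehicle and 39 to 61 in CXCL10 tumours. Its levels were 5.51, 5.83, 5.54 and 5.25 in vehicle and 5.52, 5.39, 5.47 and 5.89 in CXCL10 tumours 1 to 4, and the groups overlapped throughout. The means were 5.53 ± 0.24 and 5.57 ± 0.22 (SD, n = 4 each), with a log2 difference of 0.035 (SE 0.16, 95% interval -0.32 to 0.39, limma adjusted p = 0.908). Counting error alone gives SDs of 0.22 and 0.21 here, about the size of the spread between tumours. The sign turned with median-of-ratios scaling (-0.071), after centring on the panel median (-0.045) and with quantile normalization (-0.10). Whether the probe lay above background was not assessed.

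The log2 level of Cx3cr1 minus that of Cx3cl1 was 1.77, 1.63, 1.62 and 2.02 in vehicle and 1.06, 1.93, 1.34 and 1.58 in CXCL10 tumours 1 to 4. CXCL10 tumours 1, 3 and 4 lay below all vehicle tumours, and number 2 lay within their range. The means differed by -0.28 (SE 0.21), or by -0.14 without CXCL10 tumour 1 and -0.44 without CXCL10 tumour 2.

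Over the 6 genes, 3 had a higher and 3 a lower mean, with a median log2 difference of -0.035 (-0.086 to 0.016 with 1 tumour left out), beside 0.13 for the panel. With the 3 other scalings 1 of the 6, Cxcr6, was higher and the median ran from -0.16 to -0.11, beside 0.012 to 0.047 for the panel. By role, the receptors stood at 0.50, 0.0055 and -0.25, and the ligands at -0.075, -0.35 and 0.035, in the order of the pairs. Other chemokine receptors on the panel were higher in 9 of 14 genes with a median of 0.14 and 0 called, and other chemokines in 25 of 32 with a median of 0.16 and 0 called. Over the whole panel 69.6% of genes were higher. With the 3 other scalings 7 of 14 receptors and 18 to 23 of 32 chemokines were higher. The medians then ran from -0.015 to 0.060 and from 0.052 to 0.078. The receptors of smallest p were Ccr8, a receptor of regulatory T cells, at 0.35 (limma adjusted p = 0.197), Ccr7, which guides cells to lymph nodes, at 0.34 (0.259), and the monocyte receptor Ccr2 at 0.38 (0.394). The chemokines of smallest p were Cxcl13, which draws B cells, at 0.92, Ccl25 at 0.76 and the CXCR3 ligand gene Cxcl11 at 0.85, each with a limma adjusted p = 0.167.

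**Figure D5:**
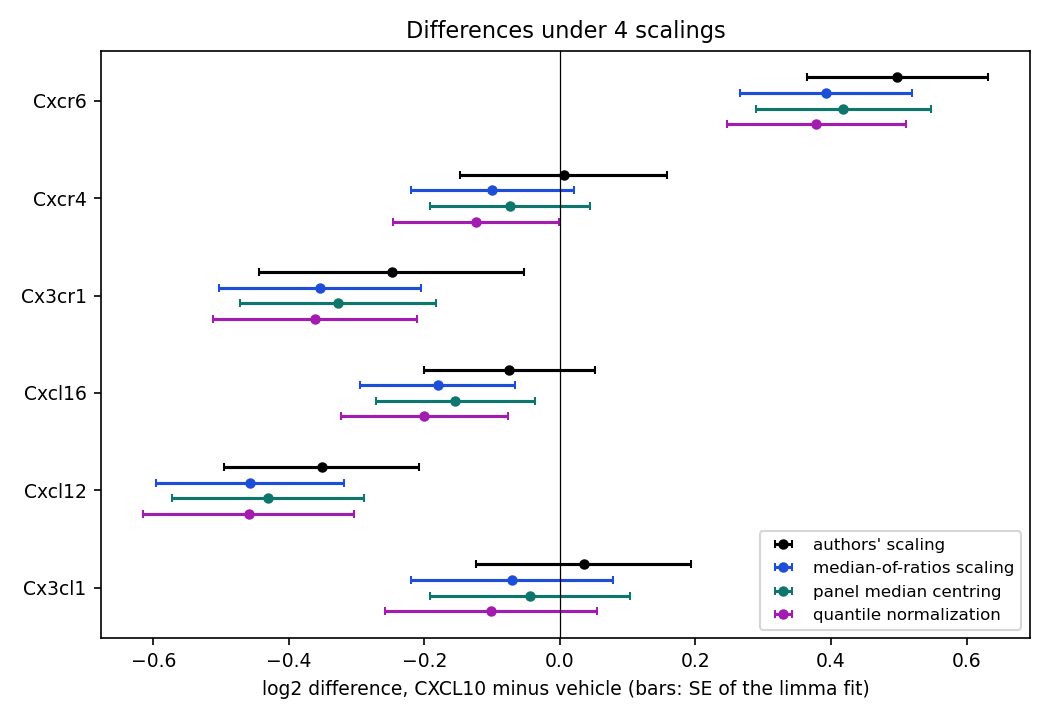
Log2 difference between CXCL10 and vehicle tumours (horizontal axis) for each gene under the authors' scaling and 3 others, with bars of 1 SE of the limma fit. Cxcr6 stays between 0.38 and 0.50 and Cxcl12 between -0.46 and -0.35, whereas Cxcr4 and Cx3cl1 change sign.

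Genes that work with these receptors were listed as well, among them co-receptors, proteases, integrins, kinases and inducers. Of this list 27 of 37 genes were measured, and 20 were higher and 7 lower, against 69.6% and 30.4% over the panel. The median was 0.11, beside 0.13 for the panel. It was 0.0076 to 0.033 with the 3 other scalings, 0.054 without vehicle tumour 3, 0.068 without CXCL10 tumour 4 and 0.074 without CXCL10 tumour 2. Of the list 0 were called and 5 had an unadjusted p under 0.05, all on the higher side, where 15.0% of the panel lay. The list thus lay near the panel as a whole. Itgb1 and Itga4, the chains of the integrin VLA-4 that chemokine signals activate, stood at 0.42 and 0.40, and Dpp4, the protease that inactivates CXCL12 protein, at 0.36, each with a limma adjusted p = 0.195. Cd74 and Mif, the surface partner of CXCR4 and a further ligand of both, stood at -0.27 and 0.11 (limma adjusted p = 0.306 and 0.609). Genes of tissue-resident and activated T cells, a state in which CXCR6 is common, were higher in 12 of 13 (69.6% over the panel). The median was 0.26, 0 were called, and 5 had an unadjusted p under 0.05, all on the higher side (15.0% over the panel). With the 3 other scalings 9 of 13 were higher and the median ran from 0.11 to 0.18, and without CXCL10 tumour 4 it was 0.11. Their summed normalized count ranged from 3332 to 3711 in vehicle and from 3802 to 4840 in CXCL10 tumours. The members of smallest p were Cd69, a marker of activation and residence, at 0.77, the checkpoint receptor Ctla4 at 0.62 and the co-stimulator Icos at 0.48 (limma adjusted p = 0.0915, 0.0915 and 0.167). In 4 of the 13, these 3 and Pdcd1, every CXCL10 tumour lay above every vehicle tumour, against 7.79% of all genes. Of further genes tied to residence, Itgae, the 1 lower gene, stood at -0.14, Itga1 at 0.058, Prdm1 at 0.11 and Runx3 at 0.26. Their limma adjusted p were 0.664, 0.830, 0.731 and 0.448.

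Genes that varied most like each member were taken by Pearson's r of the deviations from the group means over the 8 tumours, so that the treatment difference plays no part. These r are among the highest of all genes, rest on 8 tumours that share 1 scaling factor each, and are given as a description. For Cxcr6 they were the mast cell chymase Cma1 (0.96), the complement gene C4b (0.96) and the complement regulator Cd55 (0.95). For Cxcl12 they were the complement gene C3 (0.90), the pericyte marker Cspg4 (0.90) and the complement inhibitor Serping1 (0.90). For Cxcr4 they included Cebpb, a transcription factor of myeloid cells (0.94), and the interferon gene Ifna4 (0.92, or 0.79 with median-of-ratios scaling). For Cxcl16 they were the B cell gene Ms4a1 (0.95), the signalling kinase Irak4 (0.89) and the Fc receptor gene Fcgr3 (0.89). With median-of-ratios scaling Irak4 stood at 0.68 and Fcgr3 at 0.76. For Cx3cr1 they were Map3k1 (0.97, or 0.56 with median-of-ratios scaling), Entpd1, the ectoenzyme CD39 (0.97), and the inhibitory receptor Tigit (0.94). For Cx3cl1 they were Nlrc5, the transactivator of MHC class I (0.90), the interferon-induced GTPase Irgm2 (0.90) and Traf2 (0.89, or 0.69 with median-of-ratios scaling).

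Recovered counts summed to between 973697 and 1167694 per tumour. The epithelial marker Epcam, which the labelled tissue should carry, stood at 11.51 ± 0.21 in vehicle and 11.85 ± 0.16 in CXCL10 tumours (SD, n = 4 each). Skeletal muscle markers, which a cheek tumour could hold, had 0 measured genes of 8 listed. B cell genes were higher in 2 of 6 (median -0.070), neutrophil genes in 1 of 4 (median -0.18) and epithelial and carcinoma genes in 5 of 7 (median 0.069), with 0 called in each. With the 3 other scalings these medians ran from -0.22 to -0.15, from -0.28 to -0.26 and from -0.047 to -0.010. Leaving out 1 tumour moved the neutrophil median to between -0.31 (without vehicle tumour 4) and 0.028 (without vehicle tumour 2) and the epithelial median to between 0.031 (without CXCL10 tumour 4) and 0.11 (without vehicle tumour 3), and the B cell median was 0.026 without vehicle tumour 3 and 0.024 without CXCL10 tumour 4. The direction of the B cell and neutrophil medians thus changed with single tumours.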

How the data were processed

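The values used are log2 normalized counts that the authors deposited for 693 genes, with a column for each of the 8 tumours. A panel of 782 probes held 748 endogenous probes, 55 of them pruned, and 6 of 20 housekeeping genes served for normalization, per the file headers. Each probe's coefficient of variation, in percent, was deposited too, and counts recovered here matched it in 693 of 693 genes within 0.02 percentage points. The instrument and software were not given in the sources used here. Another 16 value columns carry names that match no sample label and were not used, so that probe background was not assessed. Unlogged values were whole multiples of 1 step per tumour (100% of values within 0.02 counts). Genes were tested on the log2 values with lmFit and plain eBayes of limma 3.58.1 in R 4.3.3, with group as the only term and Benjamini-Hochberg adjustment over 693 genes, tested on simulated data. Groups and the day of collection follow the titles. Whether each tumour had a mouse of its own is not labelled, and p-values then cover only the spread between these samples, which may be technical. Intervals are at 95%. The members, gene lists and tests were chosen with earlier results of these data known. Named genes are the 6 members, the 3 genes of smallest p in each of 4 pathway lists and the 3 genes most like each member, of which 1 is not reported here. Mif, Cd74, Pdcd1, Itgae, Itga1, Prdm1, Runx3 and Epcam were added outside that rule, after their values were seen. So were Prf1, Itgam and the fibroblast, pericyte and matrix genes other than Cspg4. Other settings were a mean-variance trend, voom on recovered counts, 3 other scalings, a count of at least 50 in 4 tumours, a replicate block and leaving out each tumour.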

Additional observations from a re-analysis of the deposited data

Results flagged for a closer look

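Within each group of 4, a tumour was looked at again where most of the group's range lay between it and the next tumour (Dixon's 95% limit). This held for 2 of 42 groups of values examined, and chance gives about 1 in 20. The lymph node homing receptor Ccr7 stood at a log2 level of 8.14 in CXCL10 tumour 1, against 8.50 to 8.53 in the other CXCL10 tumours. The co-stimulator Icos stood at 9.40 in vehicle tumour 1, against 9.09 to 9.13 in the other vehicle tumours. None of the 6 receptor and ligand genes and none of the 3 receptor-ligand measures did so.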

How the results depend on the processing

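The 2 genes called higher over the panel became 0 with a mean-variance trend, voom, median-of-ratios scaling, centring on the panel median, quantile normalization, the count filter and the replicate block, and 0 to 3 with 1 tumour left out. The 0 called lower became 1 with quantile normalization and 0 to 2 with 1 tumour left out. None of the 6 members was called in any of these settings. Cxcr6 stayed between 0.38 and 0.50, and between 0.43 and 0.57 with 1 tumour left out (limma adjusted p = 0.145 to 0.296 over both). Cxcl12 stayed between -0.46 and -0.35, and between -0.43 and -0.24 with 1 tumour left out (limma adjusted p = 0.133 to 0.436 over both). Cxcl16 ranged from -0.20 to -0.074, and from -0.15 to -0.018 with 1 tumour left out. Cx3cr1 ranged from -0.36 to -0.25, and from -0.39 to -0.093 with 1 tumour left out. Cxcr4 changed sign with median-of-ratios scaling (-0.10), centring on the panel median (-0.074) and quantile normalization (-0.12), and ranged from -0.095 to 0.10 with 1 tumour left out. Cx3cl1 changed sign under the same scalings (-0.071, -0.045 and -0.10), ranged from -0.073 to 0.13 with 1 tumour left out, and did not pass the count filter. The cause was not tested. With the replicate number as a block, Cxcr6 and Cxcl12 had limma adjusted p of 0.196 and 0.235. Same-numbered tumours shared only a number, with correlations of their deviations of 0.25, -0.32, 0.23 and -0.26. With 1 tumour left out the receptor-ligand shifts ranged from 0.48 to 0.68 for Cxcr6 minus Cxcl16, from 0.23 to 0.50 for Cxcr4 minus Cxcl12 and from -0.44 to -0.14 for Cx3cr1 minus Cx3cl1.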
